A study of Mus musculus with 8 samples.

Results

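The Slc16 genes encode the monocarboxylate transporters (MCTs), carriers of the plasma membrane that are best known for moving lactate, pyruvate and ketone bodies together with a proton. Only some members do this. Others carry creatine, carnitine, aromatic amino acids or thyroid hormone, and for several the substrate is not settled. In the fasted liver such carriers stand where lactate and amino acids enter hepatocytes and where ketone bodies leave them.

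The 9 genes described here, *Slc16a1*, *Slc16a5*, *Slc16a6*, *Slc16a7*, *Slc16a9*, *Slc16a10*, *Slc16a11*, *Slc16a12* and *Slc16a13*, were taken by symbol from the 27179 genes of a liver RNA-seq table, and all 9 had reads. The family was selected on measured values of these libraries, since it was proposed with the authors' comparison of the genotypes in view, and *Slc16a11* and *Slc16a13*, neighbours on chromosome 11, were set against the other 7. None of the values behind that choice is used here. The libraries came from whole liver of adult male mice killed after 6 h of fasting: 4 wild-type mice and 4 mice homozygous for V227A, a valine to alanine change in PPARα, the nuclear receptor that drives the hepatic fasting response. The allele was made by adenine base editing, comes from 1 founder bred to C57BL/6NHsd, and is present in every tissue, not in hepatocytes alone. Both genotypes had the same fast. In whole tissue, fewer cells of a type and less RNA per cell cannot be told apart.

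The values used are mean levels over all 8 libraries. No column of the table gives a single library, and its columns on the difference between genotypes are the result of the authors' own comparison and were not used. Levels in wild-type and in V227A liver can therefore not be set apart here, no spread between mice can be given, and nothing below says whether a member rose, fell or stayed the same in V227A liver. The level is the log2 CPM, a gene's reads scaled to a fixed library size, averaged by the authors. It was turned into reads per library, with the mean library found to hold 27473997 counted reads, and into CPM per kilobase of the longest annotated transcript, the scale on which levels of different genes are compared. Reads are given for depth. Intervals are exact Poisson intervals at 95%. They cover counting error only and not the spread between mice.

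The labelled tissue was checked against marker genes. The 6 hepatocyte markers lay between 208 and 34208 CPM per kilobase, with *Alb* highest. Markers of the other liver cells were present at lower levels: 1.45 to 33.2 CPM per kilobase for the 5 Kupffer cell genes, 1.93 to 26.2 for the 5 endothelial genes, 1.24 to 2.54 for the 5 stellate cell genes and 0.303 to 15.9 for the 5 cholangiocyte genes. T and B cell markers reached at most 0.210, skeletal muscle markers 0.474, adipose markers 0.194 and kidney markers 0.00866 CPM per kilobase. Red blood cell genes lay between 26.0 and 124 CPM per kilobase. Of the 4 pancreas markers 1 had reads, *Cela1* at 27.0, and of the 3 intestine markers *Fabp2* stood at 89.3 CPM per kilobase. How much of each member's signal came from which cell type was not tested.

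The members are relatives, and their coding sequences show how close. The most similar stretch of the neighbouring pair and that of the pair with the highest identity among the 9 members are printed as 60 bases of coding sequence, 5′ to 3′ on the coding strand, with capitals where both genes of a pair hold the same base. *Slc16a11* and *Slc16a13* are identical at 46 of these 60 bases, and *Slc16a1* and *Slc16a7* at 52 of 60.
Slc16a11: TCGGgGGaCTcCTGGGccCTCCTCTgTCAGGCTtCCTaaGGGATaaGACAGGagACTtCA
Slc16a13: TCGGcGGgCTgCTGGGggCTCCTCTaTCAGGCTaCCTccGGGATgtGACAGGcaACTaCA
Slc16a1: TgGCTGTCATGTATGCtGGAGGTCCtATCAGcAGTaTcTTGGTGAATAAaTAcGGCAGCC
Slc16a7: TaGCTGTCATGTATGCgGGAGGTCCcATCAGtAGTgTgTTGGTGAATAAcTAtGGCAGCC

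In GRCm38 the *Slc16a11* stretch runs over chr11:70216022-70216166 on the plus strand, from exon 6 into exon 7 of 7. Its counterpart in *Slc16a13* runs over chr11:70217892-70218622 on the minus strand, from exon 3 into exon 4 of 4. The exon junction falls after base 30 of the stretch in both genes. The *Slc16a1* stretch lies at chr3:104649497-104650924 on the plus strand, across exons 2 and 3 of 5, and the *Slc16a7* stretch at chr10:125233547-125294615 on the minus strand, across exons 3 and 4 of 6. Here the junction falls after base 21 in both genes. The position of the junction within each aligned stretch was thus the same in either pair.

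Over whole coding sequences, identity across the 36 pairs of members ran from 45.1% for *Slc16a6* with *Slc16a13* to 63.7% for *Slc16a1* with *Slc16a7*, as a share of the longer sequence, with a median of 51.2%. *Slc16a11* and *Slc16a13* shared 59.4%, the second highest value of the 36. This share depends on length, and as a share of the aligned bases alone the range was 53.3% to 66.8%, with a median of 60.7%. By that measure *Slc16a1* with *Slc16a7* were again highest, while *Slc16a11* and *Slc16a13* shared 63.5% and came at place 5 of 36. The pair that was highest by both measures encodes the transporters known as MCT1 and MCT2, which carry lactate, pyruvate and ketone bodies with a proton. *Slc16a12*, a creatine transporter, shared 56.3% of the longer sequence with *Slc16a1*. *Slc16a6* shared 45.1% to 49.5% of the longer sequence with the other members but 60.5% to 65.3% of the aligned bases. With *Slc16a13* it went from the lowest of the 36 values to the second highest. The share of aligned bases leaves out bases without a partner, and 1257 bases of *Slc16a6* and *Slc16a13* were aligned. Neither measure was set against unrelated sequences. *Slc16a6* has the longest coding sequence, 1821 bases or 607 codons, while *Slc16a13* and *Slc16a11* have the shortest, 1284 bases (428 codons) and 1341 bases (447 codons). The coding sequences of the pair were also the richest in G and C among the members, at 64.5% for *Slc16a11* and 59.9% for *Slc16a13*, against 44.4% for *Slc16a7* at the low end.

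**Figure D1:**
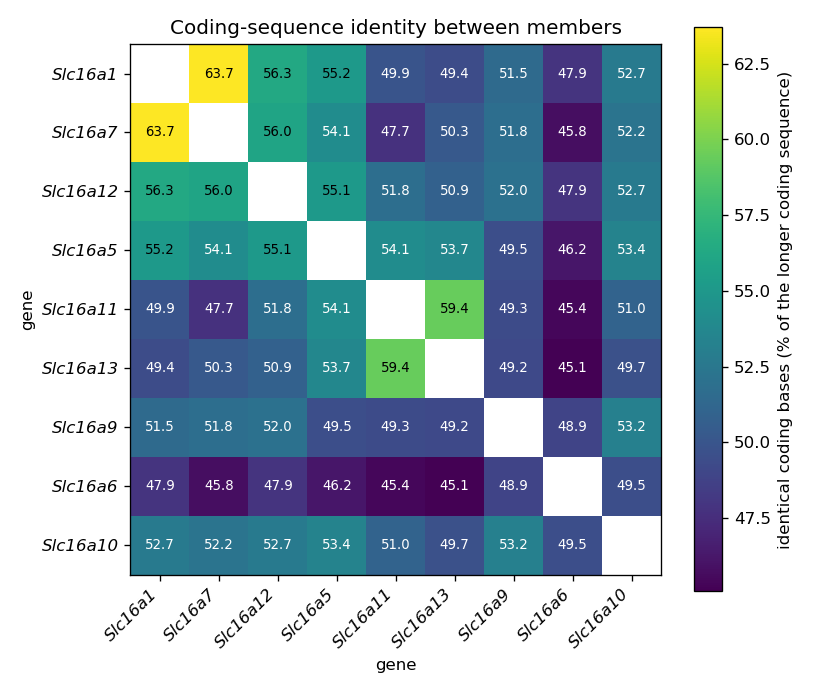
Identical bases between the coding sequences of the 9 members, as a percentage of the longer sequence, for each pair of genes on the axes, with the colour scale showing the same percentage. *Slc16a1* with *Slc16a7* (63.7%) and *Slc16a11* with *Slc16a13* (59.4%) stand out, and the row of *Slc16a6*, the longest coding sequence, is the darkest on this measure.

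The amino acid and thyroid hormone carrier *Slc16a10* was the most abundant member, and *Slc16a9*, a carnitine and creatine transporter, the least. *Slc16a10* (chr10:40033532-40142258, minus strand), which encodes TAT1, had a mean log2 CPM of 6.58, or 2624 reads per library. Per length this was 17.7 CPM per kilobase (95% counting interval 17.5 to 17.9), above 86.9% of the genes with reads and a known length. It made up 33.6% of the summed level per length of the 9 members. The next member per length, *Slc16a1*, lay 2.22 times lower.

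Which of the 2 classical proton-coupled carriers was higher depended on the length taken. *Slc16a1* (chr3:104638668-104658462, plus strand), encoding MCT1, had a mean log2 CPM of 5.15 and 972 reads per library, which gave 7.99 CPM per kilobase (7.81 to 8.17). *Slc16a7* (chr10:125219270-125389465, minus strand), encoding MCT2, had 4.60 and 664 reads per library. Its longest transcript of 10981 bases is the longest of the family, so that its level per length was 2.20 CPM per kilobase (2.14 to 2.26). With the median coding transcript it was 9.99 CPM per kilobase, above *Slc16a1*, which stayed at 7.99. *Slc16a6* (chr11:109450855-109473598, minus strand) encodes MCT7, known for the export of ketone bodies from hepatocytes. It had a mean log2 CPM of 2.32, with 135 reads per library and 1.17 CPM per kilobase (1.10 to 1.24), the eighth of the 9 levels.

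Among the creatine and carnitine carriers, *Slc16a12* (chr19:34668403-34747289, minus strand) had a mean log2 CPM of 4.80, 764 reads per library and 6.86 CPM per kilobase (6.69 to 7.04). *Slc16a9* (chr10:70245100-70285968, plus strand) had 0.96, with 51.3 reads per library and 0.497 CPM per kilobase (0.450 to 0.547). It was 1 of 2 members below the median gene of 1.40 CPM per kilobase, the other being *Slc16a6*. *Slc16a5* (chr11:115462474-115474398, plus strand), encoding MCT6, had a mean log2 CPM of 4.15, 486 reads per library and 7.56 CPM per kilobase (7.33 to 7.80).

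The neighbouring genes *Slc16a11* and *Slc16a13* differed in level with the longest transcript and with the union of exons, with *Slc16a11* the higher. With the median coding transcript their levels were close. That length is 407.5 bases for *Slc16a13*, however, which is shorter than its coding sequence of 1284 bases. *Slc16a11* (chr11:70212752-70216417, plus strand) and *Slc16a13* (chr11:70216789-70221064, minus strand), which encode MCT11 and MCT13, lie in a region that in human carries risk for type 2 diabetes. *Slc16a11* had a mean log2 CPM of 3.82, with 387 reads per library and 7.27 CPM per kilobase (7.02 to 7.53). *Slc16a13* had 1.86, with 97.9 reads per library and 1.41 CPM per kilobase (1.31 to 1.51), close to the median gene at the 50.1th percentile. *Slc16a11* thus had 5.16 times the level per length of *Slc16a13* (counting interval 4.77 to 5.59). The ratio was 4.03 with the union of exons and 1.02 with the median coding transcript, at 8.93 against 8.75 CPM per kilobase.

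From the highest to the lowest level per length, the order was *Slc16a10*, *Slc16a1*, *Slc16a5*, *Slc16a11*, *Slc16a12*, *Slc16a7*, *Slc16a13*, *Slc16a6* and *Slc16a9*. The counting intervals of neighbours in this order overlapped for *Slc16a5* with *Slc16a11* and for *Slc16a11* with *Slc16a12*, so that these were not set apart even by counting error. For the other neighbours the intervals did not overlap, which says nothing of the spread between mice. The order also moved with the length taken for each gene. With the union of exons 7 members kept their place, and with the median coding transcript 4 did.

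**Figure D2:**
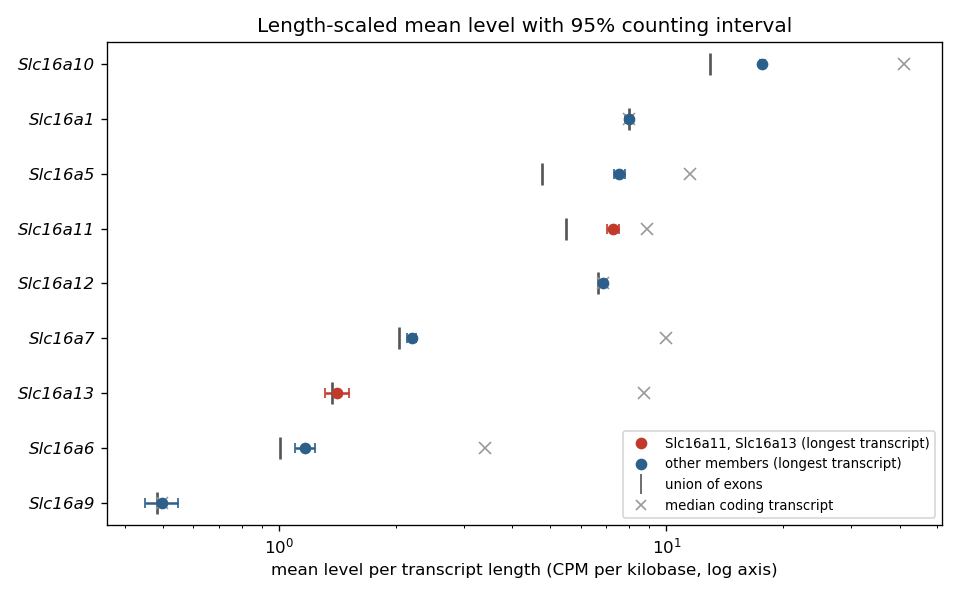
Mean level of each member over the 8 libraries in CPM per kilobase on a log axis. Dots and bars give the value with the longest transcript and its 95% counting interval, ticks the value with the union of exons and crosses that with the median coding transcript. *Slc16a10* is highest and *Slc16a9* lowest with the dots, and the cross of *Slc16a13* lies far right of its dot.

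**Figure D3:**
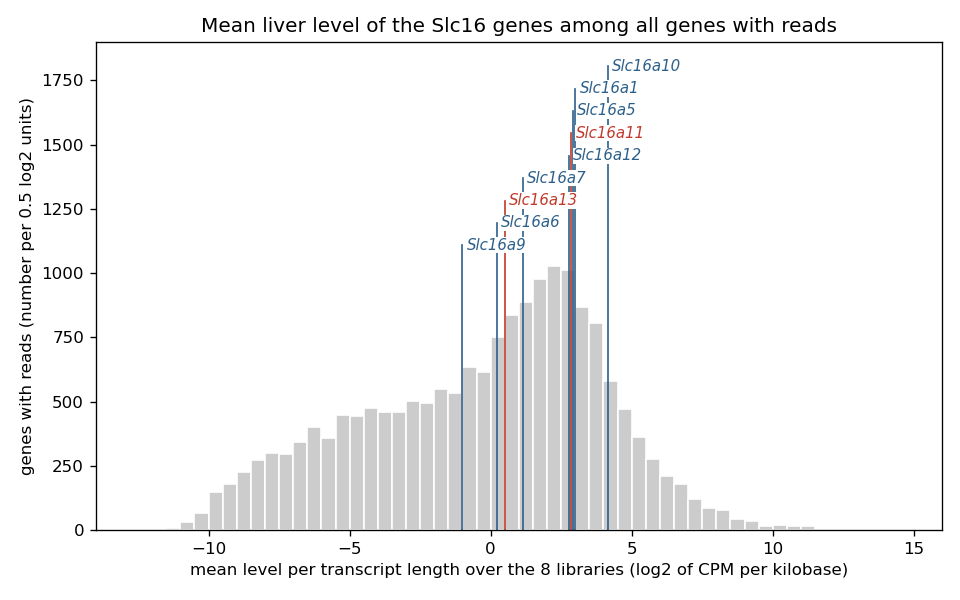
Number of genes with reads and a known length (bars, per 0.5 log2 units) by mean level, as log2 of CPM per kilobase, with a line for each member, red for *Slc16a11* and *Slc16a13*. Of the 9 lines 7 lie above the median gene, and 4 of them, from *Slc16a12* to *Slc16a1*, fall close together.

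Set against the other 7 members, *Slc16a11* and *Slc16a13* did not stand apart in level, since both lay inside the range of the others. Together they made up 16.5% of the summed level per length of the 9 members. The median over the pair was 4.34 CPM per kilobase and that over the others 6.86, a ratio of 0.632. With the median coding transcript as length the ratio turned to 1.11, because short annotated fragments bring that length to 407.5 bases for *Slc16a13*. These are 2 genes against 7 and no replicates, so no test was made.

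The genes of the pair were shorter than those of the other 7 members. They span 3666 and 4276 bases, while the others span 11925 to 170196 bases. *Slc16a8*, a Slc16 gene outside the 9, spans 3748 bases, so that a short span is not particular to the pair. They are transcribed towards each other, their 3′ ends face across 371 bases in GENCODE (374 in RefSeq), and their outermost transcription starts lie 8312 bases apart in GENCODE (9045 in RefSeq). No exon of either overlaps an exon of another gene, so that reads of the pair need not be shared with a neighbour. Within 50 kb there are 9 other annotated genes, of which 7 are in the table and 5 had reads. *Rnasek*, which encodes a small membrane ribonuclease, had 97.5 CPM per kilobase and *0610010K14Rik* 16.6. *Bcl6b*, a transcriptional repressor, had 0.452, *Clec10a*, a lectin of macrophages, 0.129, and *Alox12*, a lipoxygenase, 0.104. *Mir497* and *Mir195a* had no reads. Levels within this region thus ran from far above *Slc16a11* to far below *Slc16a13*.

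**Figure D4:**
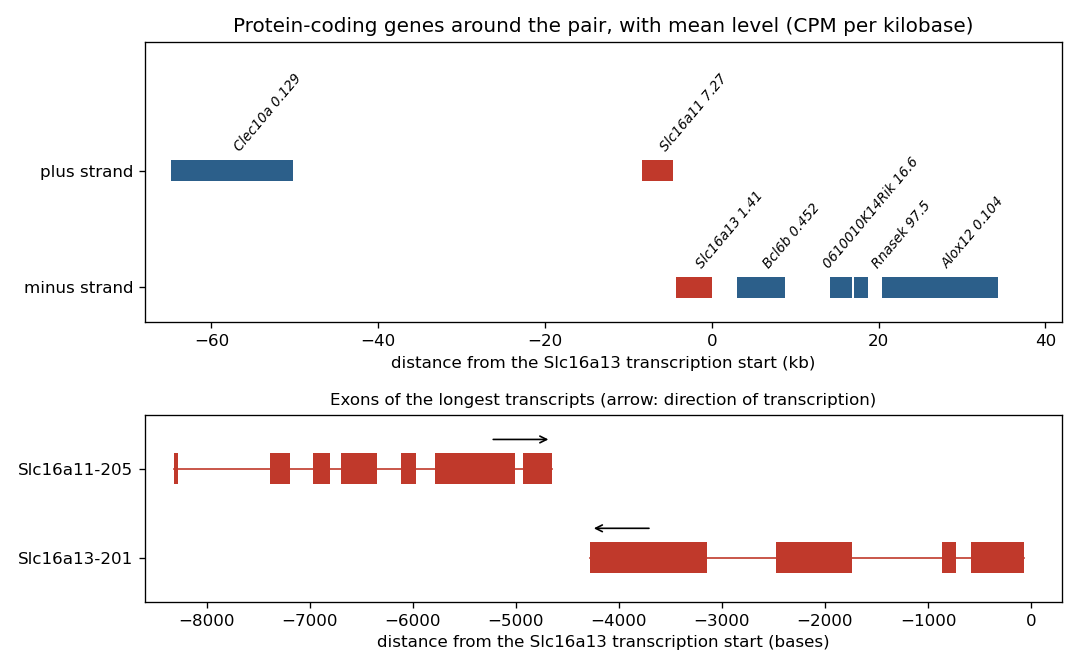
Upper panel, the protein-coding genes with reads around *Slc16a11* and *Slc16a13* by distance from the *Slc16a13* transcription start in kb, on the plus and minus strands, each with its mean level in CPM per kilobase. Lower panel, the exons of the longest transcript of each gene by distance in bases, with arrows for the direction of transcription. The pair converges and its exons do not overlap.

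Exons of other members do overlap with other genes, and whether the counting used strand is not given in the sources used here. *Slc16a6* shares 1052 bases, 21.5% of its exonic sequence, with *Amz2* on the opposite strand, which had 446 reads per library against its own 135. It shares a further 48 bases with *Arsg*, which had 332 reads per library, and 49 bases with *Gm25540*, an annotated miRNA on its own strand. *Slc16a9* shares 491 bases with the antisense gene *Gm7097* and 419 bases with the pseudogene *Gm9877*, *Slc16a7* 179 bases with *Gm47862* and *Slc16a5* 104 bases with *Gm11695*. The overlaps were largest for *Slc16a6* and *Slc16a9*, whose levels could be the most affected by shared reads. No level was available for the genes that overlap *Slc16a9*, and an effect on the reads of either member was not tested.

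Direct repeats of the half-site AGGTCA with a spacer of 1 base are the sequence to which PPARα binds with RXR, and promoters of 300 bases (250 before to 50 after the start, RefSeq, GRCm38.p6) were searched for it on both strands. Promoters were at hand for 5 members, and none held the full repeat of 12 letters, which 13 of 32851 promoters (0.0396%) did. *Slc16a9* and *Slc16a10* matched at 9 of 12 letters, and 24.6% of all promoters matched at 9 or more. *Slc16a1*, *Slc16a11* and *Slc16a12* matched at 8, and 79.8% of all promoters matched at 8 or more. The best matches are shown for the member with the highest level, for *Slc16a11* of the pair and for the member with the lowest level, with matched letters in capitals.
Slc16a10: cGGTCAttGGaCA
Slc16a11: AGcTCcaAcaTCA
Slc16a9: AGGgCAgAGGgCg

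These lie at chr10:40142397-40142409 on the minus strand, chr11:70213727-70213739 on the minus strand and chr10:70245261-70245273 on the plus strand. The start sites of this promoter table are not those of the longest GENCODE transcripts. The *Slc16a11* match lies inside an exon of *Slc16a11*-205, its longest transcript in GENCODE, and the *Slc16a9* match inside the GENCODE gene. Matches of this length are common, and nothing about binding follows from them.

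Of 4 other Slc16 genes of the table, each lay below every one of the 9 members. The members were chosen with earlier results of these data known, so this separation may follow from that choice. *Slc16a3*, the lactate exporter MCT4 of glycolytic cells, had 0.0397 CPM per kilobase and *Slc16a4* 0.00538. *Slc16a8*, known from the retinal pigment epithelium, and *Slc16a14* had no reads in any library, which allows up to 3 reads in all or 0.375 reads per library by the rule of 3 counts taken for a count of 0 (0.461 reads per library by the exact Poisson interval). Among the genes of the lactate carriers MCT1, MCT2 and MCT4, *Slc16a3* had the lowest level with every length tried.

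The partners of these carriers were measured with the same unit. MCT1 needs a chaperone to reach the membrane, and of the 2 known ones *Bsg* (basigin) had 230 CPM per kilobase while *Emb* (embigin), the partner favoured by MCT2, had 0.0699. Lactate and pyruvate genes lay above the median gene in 4 of 5 cases. *Ldha*, the lactate dehydrogenase subunit of liver and muscle, had 265 CPM per kilobase and *Ldhb*, the heart subunit, 1.36. *Mpc1* and *Mpc2*, the mitochondrial pyruvate carrier, had 11.8 and 46.8, and *Ldhd*, which oxidises D-lactate, 30.2.

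Of 4 ketone body genes, 3 lay above the median gene. *Acat1*, the mitochondrial acetoacetyl-CoA thiolase, had 107 CPM per kilobase. *Bdh1*, which interconverts acetoacetate and 3-hydroxybutyrate, had 59.5 and *Bdh2* 4.86. *Oxct1*, the enzyme of ketone body use that hepatocytes lack, had 1.17. *Acat1* and *Bdh1* thus stood far above *Slc16a6*, whose level was near that of *Oxct1*. They also stood above *Slc16a1* and *Slc16a7*, which carry ketone bodies too and had 7.99 and 2.20 CPM per kilobase.

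Creatine and carnitine genes lay above the median gene in 4 of 5 cases. *Gamt*, the second enzyme of creatine synthesis, had 179 CPM per kilobase and *Gatm*, the first, 0.893. The creatine transporter *Slc6a8* had 1.44, below *Slc16a12*, and the carnitine carriers *Slc22a5* of the plasma membrane and *Slc25a20* of mitochondria had 11.3 and 66.1. Of the 8 genes of aromatic amino acids and thyroid hormone, 6 lay above the median gene. The tyrosine catabolic enzymes *Hpd* and *Tat* had 2654 and 616 CPM per kilobase, and the deiodinase *Dio1* and the organic anion carrier *Slco1a1* 80.4 and 77.5. *Slc3a2*, the heavy chain of amino acid exchangers, had 13.4, *Thrb*, a thyroid hormone receptor, 3.74, and the light chains *Slc7a5* and *Slc7a8* 0.529 and 0.528. *Slc16a10* lay above both light chains.

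**Figure D5:**
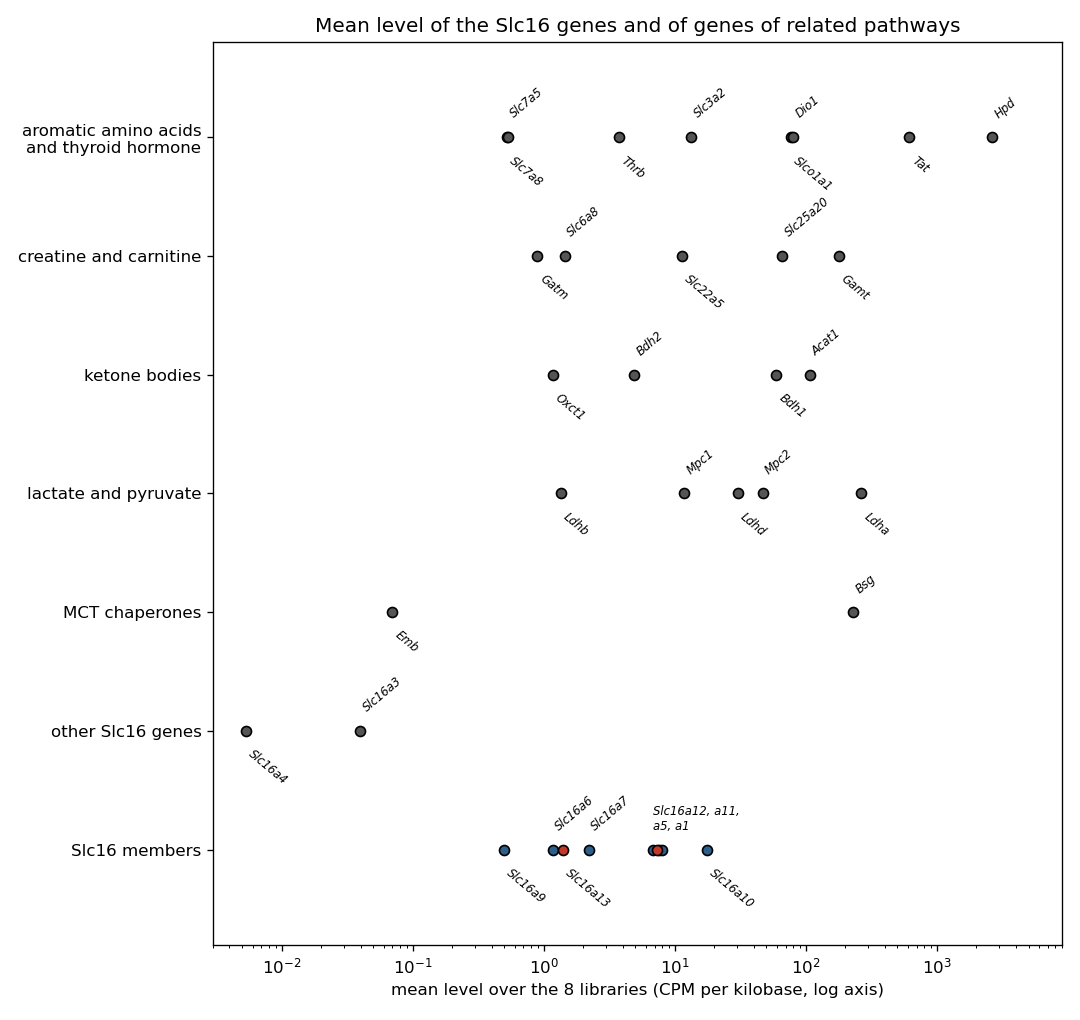
Mean level over the 8 libraries, in CPM per kilobase on a log axis, of the 9 members (bottom row, with *Slc16a11* and *Slc16a13* in red) and of the genes with reads in 6 lists of relatives and pathway partners. The members span 0.497 to 17.7. This range holds for the 9 chosen members only. The Slc16 genes with reads outside them, *Slc16a3* at 0.0397 and *Slc16a4* at 0.00538, lie below it.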

How the data were processed

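RNA-seq of liver compared 4 wild-type and 4 V227A mice. Per the study's methods, the authors read stranded poly-A libraries in pairs, and the reads were trimmed with Trimmomatic, checked with FastQC, aligned to GRCm38 with RNA STAR, counted with featureCounts and compared with edgeR. Tool versions, annotation, strand setting, filter and covariates are not given in the sources used here.

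The authors deposited 1 table of 27179 genes. Its average log2 CPM over the 8 libraries, computed by the authors, is the unit used. Its other 4 measurement columns hold the authors' own comparison of the genotypes (log2 fold change, F, p-value and FDR) and were not used, so the planned genotype test was not made. There were 0 further columns per sample.

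The 8242 genes at the lowest value, -3.78, have no reads. With a prior count of 2, assumed as the default of the authors' tool, this value gave a mean library of 27473997 reads. Of 2378 genes with 1 to 5 estimated reads in total over the 8 libraries, 99.9% fell within 0.1 of a whole number of total reads. Each library's own depth is unknown. Lengths, positions and coding sequences came from GENCODE vM21 (GRCm38), with a length for 17956 of 18937 genes with reads (94.8%), and promoters from RefSeq (GRCm38.p6) for 5 of 9 members. *Slc16a5*, *Slc16a6*, *Slc16a7* and *Slc16a13* had no promoter entry. Coding sequences were aligned end to end (match 2, mismatch -3, gap opening -8, extension -2) in place of the planned protein alignment, a choice made after seeing the files, as were the promoter search and the identity over aligned bases without gaps. The estimate of reads was tested on data simulated with the same prior count and mean library, so the test could not check either of these. Python 3.11.15, pandas 2.3.3, numpy 2.4.6, scipy 1.17.1, Biopython 1.88 and matplotlib 3.10.9 were used.

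The members and all gene lists were chosen with earlier results of these data known. Named were the 9 members, 4 other Slc16 genes of the table, all genes within 50 kb of *Slc16a11* or *Slc16a13*, and the lists of chaperones, lactate and pyruvate, ketone bodies, creatine and carnitine, aromatic amino acids and thyroid hormone, and cell markers. Of the lists, 3 genes are not reported here. Genes that overlap a member's exons were named after their values were seen. Alternatives were other gene lengths, no prior count and other sets of ranked genes.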

Additional observations from a re-analysis of the deposited data

How the results depend on the processing

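Of the 9 members, 7 kept their place in the order of levels per length with the union of exons, 4 with the median coding transcript and 7 with the transcript that has the longest coding sequence, a length added after seeing the data. The ratio of the pair to the others, 0.632, was 0.720 with the union of exons, 1.11 with the median coding transcript, where it turned direction, and 0.632 with the longest coding sequence. Among the members this last length differs from the longest transcript for *Slc16a5* alone, at 1538 against 2340 bases. It is thus no separate check on the pair. *Slc16a11* over *Slc16a13* moved from 5.16 to 1.02 with the median coding transcript, and *Slc16a1* over *Slc16a7* turned from 3.63 to 0.800. Leaving out the prior count moved no member's reads beyond the counting interval. Ranking only genes with a symbol removed no gene with a known length, so it could not move a percentile. Ranking only the 11711 genes whose mean log2 CPM was 0 or higher lowered all 9 percentiles, to between 7.34 and 79.5. No paired analysis was possible because the table used holds 0 columns of values per library. For the same reason leaving out replicates, other normalizations and count filters were not run. Depth limits *Slc16a9* most, with 51.3 reads per library.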
